A study of Mus musculus with 10 samples.

Results

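The genes of mitochondrial complex I were followed in mouse liver with and without metformin. A member was any gene whose RefSeq symbol starts with Nduf, found by matching the accession of each array probe to the RefSeq gene table. The genes reported here number 45, of which 37 are named as subunits (Ndufa, Ndufb, Ndufc, Ndufs and Ndufv) and 8 as assembly factors (Ndufaf), out of 14531 named genes tested. The array held 53 probes for them, and 52 were kept. All 45 members were well above background on all 10 arrays and all 45 were tested, so the filter on dim probes removed no member. The RefSeq table also lists Ndufb1, Ndufb4b and Ndufb4c, which matched no probe and were not analysed here, and neither were the complex I subunits encoded by mitochondrial DNA.

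The 10 mice were males of strain TG221 (background B6D2F2), which carry a transgene for the microRNA miR-221; the promoter that drives it is not given in the sources used here. Every mouse, the controls included, was gavaged 3 times weekly for 14 weeks with the liver toxin carbon tetrachloride (CCl4, 20% v/v in olive oil), starting at 4 to 6 weeks of age. The treated group (6 mice) also received oral metformin every day, 300 mg/kg, beginning 3 weeks into the CCl4 course, while the control group (4 mice) did not. Livers were collected at 24 weeks. No mouse without the transgene or without CCl4 was included, so the comparison is of metformin in livers that had all been injured. The labels give the tissue as liver and the cell type as HCC, and do not say whether tumour or whole liver was taken. Each mouse had 1 array, and nothing says how litters or cages were divided.

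Complex I (NADH:ubiquinone oxidoreductase) is the largest enzyme of the respiratory chain and the main entry point of electrons from NADH. It is L-shaped: a peripheral arm in the mitochondrial matrix carries flavin and iron-sulphur clusters and passes electrons to ubiquinone, and a membrane arm pumps protons. The core subunits do the catalysis, and those of the membrane arm come from mitochondrial DNA. Accessory subunits surround both arms and are needed for assembly and stability, and assembly factors hold intermediates together without staying in the finished enzyme. Metformin is known to inhibit complex I, and the liver is a main site of its action.

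The promoters of 40 of the 45 members were found in a table of RefSeq windows (GRCm38.p6) that run from 250 bases before to 50 bases after the start site. The 3 subunits with the smallest adjusted p-values and 1 core subunit whose level differed little are shown up to the start site, 5′ to 3′ on the strand of the gene. Capitals mark the letters GCGCANGCG of a binding site of NRF1 (nuclear respiratory factor 1, an activator of nuclear genes for respiratory chain subunits) in Ndufa8 and Ndufb4, and the letters CCGGAAG of GABP (also called NRF2, an ETS-family factor) in Ndufs3. The window of Ndufb2 holds neither of these, nor the YY1 letters AANATGGCG. Ndufa8 lies on the minus strand at chr2:36049339-36049588, Ndufb4 on the minus strand at chr16:37654369-37654618, Ndufb2 on the plus strand at chr6:39592315-39592564 and Ndufs3 on the minus strand at chr2:90904722-90904971.
Ndufa8: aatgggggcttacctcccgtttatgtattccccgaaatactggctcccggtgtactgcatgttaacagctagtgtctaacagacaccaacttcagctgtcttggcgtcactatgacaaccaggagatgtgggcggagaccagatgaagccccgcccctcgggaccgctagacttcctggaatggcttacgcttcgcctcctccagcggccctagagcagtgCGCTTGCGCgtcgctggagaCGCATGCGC
Ndufb4: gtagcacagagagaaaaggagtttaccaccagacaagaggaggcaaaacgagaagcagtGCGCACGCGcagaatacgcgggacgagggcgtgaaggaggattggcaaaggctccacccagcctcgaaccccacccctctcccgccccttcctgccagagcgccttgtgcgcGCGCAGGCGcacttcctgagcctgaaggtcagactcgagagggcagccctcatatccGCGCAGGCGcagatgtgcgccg
Ndufb2: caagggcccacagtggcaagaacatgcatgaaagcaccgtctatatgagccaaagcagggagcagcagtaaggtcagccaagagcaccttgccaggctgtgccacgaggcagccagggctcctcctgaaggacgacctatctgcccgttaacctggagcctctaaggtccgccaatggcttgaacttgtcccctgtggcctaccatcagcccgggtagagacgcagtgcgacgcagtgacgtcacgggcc
Ndufs3: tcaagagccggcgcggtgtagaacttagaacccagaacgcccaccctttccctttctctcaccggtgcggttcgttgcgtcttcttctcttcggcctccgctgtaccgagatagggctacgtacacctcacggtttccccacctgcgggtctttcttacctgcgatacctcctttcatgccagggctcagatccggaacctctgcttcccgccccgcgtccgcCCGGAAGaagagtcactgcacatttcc

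Searched on both strands over the whole window, the NRF1 letters stood in 10 of the 40 members (25.0%), against 13.2% of the 11566 tested genes with a window and 7.03% of all 27025 genes of the table. Those members were Ndufa5, Ndufa6, Ndufa8, Ndufa11, Ndufb4, Ndufb10, Ndufs5, Ndufs6, Ndufaf4 and Ndufaf5. Ndufb4 held 3 separate matches and Ndufa8 held 2. Ndufa11, Ndufaf4 and Ndufaf5 also held 2 each, which overlapped, 1 on each strand. The letters were found in 7 of the 20 matched members that were called higher in the comparison below and in 3 of the other 20, and in 0 of 5 core subunits. The YY1 letters stood in 8 of 40 (20.0%, against 5.20% of tested genes) and the GABP letters in 6 of 40 (15.0%, against 17.6%). The SP1 letters GGGCGG were in 21 of 40 (52.5%, against 62.3%), CCAAT in 14 (35.0%, against 42.2%), TATAAA in 4 of 40 (against 10.69%) and the E-box CACGTG in 2 of 40 (against 10.9%). Among the 20 called higher and the other 20, YY1 stood in 3 and 5, GABP in 3 and 3 and SP1 in 11 and 10. CCAAT stood in 9 and 5, TATAAA in 0 and 4 and the E-box in 0 and 2. Of the 5 core subunits, 2 held the GABP letters and 1 the YY1 letters. Differences by call were not tested for any motif. Matches of different motifs shared bases only once among these windows, GABP with SP1 in Ndufs3. These are matches of letters, and no binding was measured.

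Probe brightness is given as the log2 of the processed intensity minus the 75th percentile of the array, so a value of 0 is the brightness of that percentile. Brightness depends on the probe, so values are compared between mice and never between genes. Per array, 51.2% to 54.9% of probes were well above background, and no spot was saturated. Each group has its own slide and scan day, so slide and metformin cannot be told apart; all 4 CCl4 arrays and those of metformin mice 1 and 2 came from slide row 1, and those of metformin mice 3 to 6 from row 2. The choice of scale moved every gene together: the median difference over all 22184 tested features, metformin minus CCl4, was 0.10 on the 75th percentile scale and -0.46 when arrays were scaled to 8 added spike-in transcripts instead. A direction below is therefore on the 75th percentile scale, with the spike-in value beside it.

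Over all tested features, 28.0% were called higher and 17.5% lower in metformin. All 17 hepatocyte markers on the array were tested, and 1 was higher and 3 lower. On the 75th percentile scale their share called lower was near that of all features, and their share called higher was smaller (5.88%). After quantile normalization 9 of the 17 were called lower, against 20.2% of all features. On the spike-in scale 13 of the 17 were, against 43.8%. The hepatocyte median difference was -0.17, against 0.10 for all features (-0.72 and -0.46 on the spike-in scale). Markers of other cell types were called lower as follows: 7 of 11 for stellate cells and myofibroblasts, 5 of 10 for neutrophils, 4 of 10 for endothelium, 4 of 8 for bile duct, 3 of 12 for macrophages and 3 of 4 for red cells, while 0 of 7 lymphocyte markers were called lower or higher by limma. In addition 1 bile duct and 1 neutrophil marker were higher. The summed stellate level, in multiples of the 75th percentile of the array, ran from 11.6 to 19.8 in metformin and from 20.0 to 29.8 in CCl4, and the summed hepatocyte level from 8525 to 10550 and from 9872 to 12200. The summed red cell level ran from 123.3 to 208.4 in metformin and from 258.8 to 415.4 in CCl4. For the remaining cell types the sums of the groups overlapped, as for neutrophils (146.8 to 183.2 in metformin and 122.4 to 185.4 in CCl4). A sum weighs the brightest markers most. The median differences of these lists were -1.09 for neutrophils, -1.06 for bile duct, -0.55 for endothelium, -0.24 for macrophages and 0.03 for lymphocytes. On the spike-in scale they were, in the same order, -1.65, -1.62, -1.10, -0.79 and -0.52. Of the markers listed, Lox and Ncr1 were below background on every array. In RNA from mixed tissue, fewer cells of a type and less RNA per cell cannot be told apart, and the part of these shifts in the complex I values was not tested.

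On the 75th percentile scale many complex I transcripts were higher in metformin-treated livers, among them 14 of 19 membrane arm accessory subunits, while on the spike-in scale their median turned negative. Of 37 subunits, 19 were called higher and 0 lower by limma (adjusted p below 0.05), against 28.0% of all tested features called higher and 17.5% called lower. At an unadjusted p below 0.05, 23 subunits were higher and 0 lower, and the share of all features at that threshold is not given. The subunits' median difference was 0.25, against 0.10 for all features, and it came to 0.18 after median scaling, 0.11 after quantile normalization and -0.31 on the spike-in scale. In 18 subunits all 6 metformin arrays lay above all 4 CCl4 arrays and in 0 all lay below, where the same was true of 21.4% and 12.3% of all features.

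On the spike-in scale 0 subunits were called higher and 9 lower by limma, with 0 higher at an unadjusted p below 0.05, beside 4.17% of all features called higher and 43.8% called lower. The 9 were Ndufa10, Ndufv1, Ndufb7, Ndufa9, Ndufa3, Ndufs3, Ndufs8, Ndufa4l2 and Ndufa13, none of which was called on the 75th percentile scale. The subunits' median stood 0.15 above that of all features on both scales. After quantile normalization 13 subunits were higher and 2 lower (Ndufa10 and Ndufv1), against 23.9% and 20.2% of all features. Ndufa12, Ndufb3, Ndufb6, Ndufb9, Ndufb11 and Ndufv2 lost their calls there, as did the assembly factors Ndufaf1 and Ndufaf6. Scaling to spike-ins shifts every gene by the same amount, so it moves the zero line and leaves the order of the genes as it was.

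**Figure D1:**
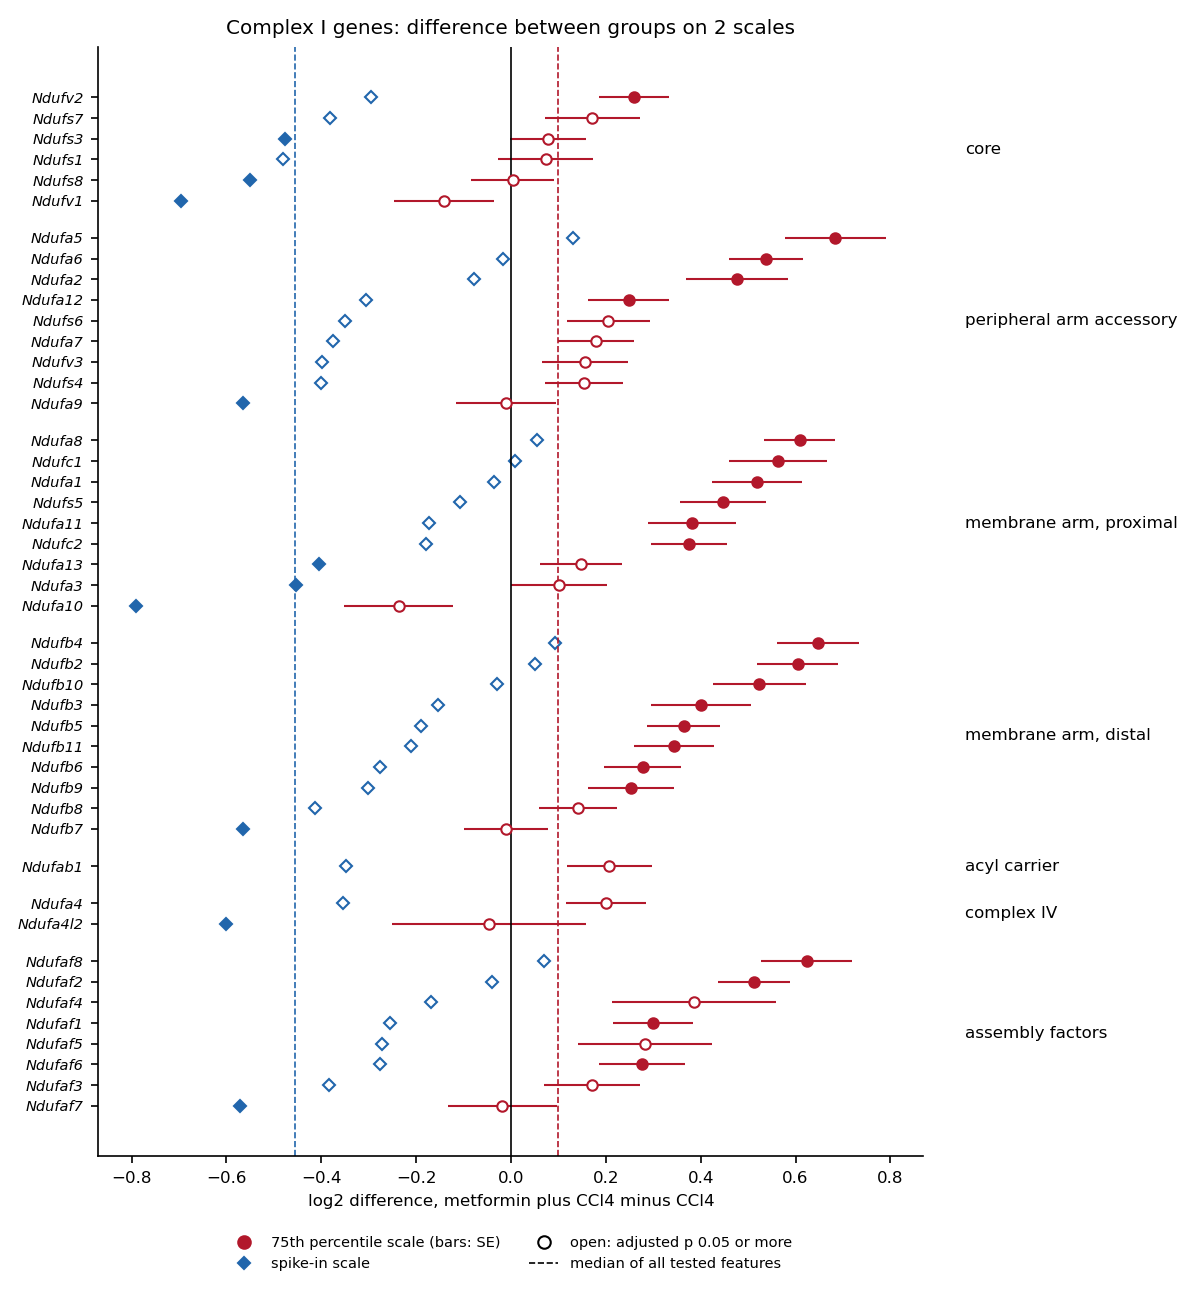
Log2 difference (metformin plus CCl4 minus CCl4, x axis) of the 45 complex I genes, grouped by role; red circles with SE bars are on the 75th percentile scale, blue diamonds on the spike-in scale, filled symbols passed adjusted p below 0.05, and dashed lines mark the median of all tested features on each scale (0.10 and -0.46). On the red scale 19 subunits and 4 assembly factors are filled, all to the right of 0, and on the blue scale 9 and 1 are filled, all to the left.

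Of the 6 core subunits followed here, several of which carry the flavin or iron-sulphur clusters, 1 (Ndufv2) was called higher and none lower, against 28.0% and 17.5% of all features. With so few genes, such a count is near the background. On the spike-in scale 3 of the 6 were called lower, against 43.8% of all features. The median difference was 0.08 (-0.48 on the spike-in scale), 0.02 below the median of all features on either scale. Ndufv2, which binds an iron-sulphur cluster beside the flavin subunit, was at 5.76, 5.71, 5.75 and 5.77 in CCl4 mice 1 to 4 and at 5.92 to 6.13 (median 5.99) in metformin. The groups did not overlap, and the difference was 0.26 ± 0.074 (SE, n = 6 and 4; adjusted p = 0.0160 in limma); it was -0.29 on the spike-in scale, where it was not called, and its call was lost once slide row entered the model (0.28, adjusted p = 0.0530).

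Ndufv1, the subunit that binds flavin and NADH, was at 7.25, 7.27, 7.23 and 7.26 in CCl4 and at 6.87 to 7.43 (median 7.11) in metformin. Only 1 metformin array, mouse 2, lay above the CCl4 arrays, and the difference of -0.14 ± 0.10 was not called (adjusted p = 0.294). Its 95% interval ran from -0.37 to 0.09. The difference moved to 0.01 in slide row 1 alone, that is, with metformin mice 1 and 2, and was -0.70 on the spike-in scale.

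Ndufs1, the largest core subunit, which holds several iron-sulphur clusters, was at 5.86, 5.83, 5.69 and 5.86 in CCl4 and at 5.70 to 6.18 (median 5.85) in metformin. Ndufs3 of the peripheral arm was at 6.84, 6.79, 6.76 and 6.74 and at 6.69 to 6.98 (median 6.89). The groups overlapped in both genes, with differences of 0.07 ± 0.10 and 0.08 ± 0.081 that were not called (adjusted p = 0.577 and 0.457) and that turned to -0.48 in each on the spike-in scale and to -0.07 in each after quantile normalization. Ndufs7, which holds the last iron-sulphur cluster before ubiquinone, was at 6.37, 6.47, 6.21 and 6.44 in CCl4 and at 6.37 to 6.71 (median 6.52) in metformin, a difference of 0.17 ± 0.10 (adjusted p = 0.184; -0.38 on the spike-in scale). Its highest arrays were those of metformin mice 1 and 2, and once slide row entered the model, so that the contrast rests on those mice, it was called higher (0.34, adjusted p = 0.0404). Ndufs8, another iron-sulphur subunit, was at 4.06, 4.11, 4.06 and 4.17 in CCl4 and at 3.97 to 4.29 (median 4.10) in metformin. The groups overlapped and the difference was 0.00 ± 0.087 (adjusted p = 0.975; -0.55 on the spike-in scale), with an interval from -0.19 to 0.20.

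Of the membrane arm accessory subunits 14 of 19 were called higher and 0 lower (0 lower at an unadjusted p), against 28.0% and 17.5% of all features, 6 of 9 in the part next to the peripheral arm and 8 of 10 in the distal part. Their median difference was 0.37 on the 75th percentile scale and -0.18 on the spike-in scale, 0.28 above all features on each. With slide row 1 alone 3 of 19 were called higher, against 15.7% of all features, beside 2 of 9 peripheral arm accessory subunits and 3 of 8 Ndufaf factors, and differences between these sets in their share of calls were not tested. Ndufa8, a twin-cysteine protein that faces the space between the membranes, was at 3.92, 3.90, 3.99 and 3.94 in CCl4 mice and at 4.46 to 4.65 (median 4.53) in metformin mice. The groups did not overlap, and the gap between them was wider than the spread within either. The difference was 0.61 ± 0.075, or 1.53-fold (adjusted p = 1.77e-04; 0.06 on the spike-in scale), the smallest adjusted p of any member.

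Ndufb4 sits in the distal part of the membrane arm. It was at 6.35, 6.26, 6.12 and 6.22 in CCl4 and at 6.73 to 7.02 (median 6.88) in metformin, a difference of 0.65 ± 0.087 (1.57-fold, adjusted p = 2.70e-04; 0.09 on the spike-in scale). A second probe for the gene gave 0.64. Ndufb2, a small distal subunit, was at 4.76, 4.51, 4.48 and 4.68 in CCl4 and at 5.13 to 5.30 (median 5.21) in metformin, a difference of 0.60 ± 0.085 (adjusted p = 3.51e-04; 0.05 on the spike-in scale). In both genes every metformin array lay above every CCl4 array.

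Ndufc1, a single-pass membrane subunit, was at 5.73, 5.56, 5.60 and 5.67 in CCl4 and at 5.99 to 6.45 (median 6.24) in metformin (difference 0.56 ± 0.10, adjusted p = 0.00158; 0.01 on the spike-in scale). Ndufa1, an X-linked single-pass subunit, was at 6.38, 6.37, 6.57 and 6.41 and at 6.74 to 7.14 (median 6.94), a difference of 0.52 ± 0.094 (adjusted p = 0.00146; -0.04 on the spike-in scale). Ndufb10, another twin-cysteine protein of the arm, was at 6.93, 7.06, 6.86 and 6.85 and at 7.19 to 7.57 (median 7.50), a difference of 0.52 ± 0.098 (adjusted p = 0.00169; -0.03 on the spike-in scale). Metformin mouse 1 was the lowest metformin array for Ndufa1 and Ndufb10, and mouse 2 for Ndufc1, and even these exceeded all CCl4 arrays.

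Ndufb5 was at 5.26, 5.19, 5.28 and 5.28 in CCl4 and at 5.49 to 5.73 (median 5.62) in metformin (difference 0.36 ± 0.077, adjusted p = 0.00337; -0.19 on the spike-in scale), and a second, dimmer probe gave 0.21 and was not called (adjusted p = 0.0691). Ndufb9, a LYR-motif subunit that binds the acyl carrier protein, had one of the 3 brightest probes. It was at 7.59, 7.64, 7.58 and 7.52 in CCl4 and at 7.61 to 7.98 (median 7.87) in metformin; the lowest metformin array, mouse 1, fell within the CCl4 range. The difference of 0.25 ± 0.090 (adjusted p = 0.0419; -0.30 on the spike-in scale) had the largest adjusted p of the 19 called subunits, and the call was lost when any of 8 single mice was left out. Ndufa13, also known as GRIM-19, had the brightest probe of all members and was at 8.01, 8.07, 7.95 and 7.92 in CCl4 and at 7.99 to 8.33 (median 8.11) in metformin. Its groups overlapped and the difference of 0.15 ± 0.087 was not called (adjusted p = 0.187; -0.41 on the spike-in scale and -0.02 after quantile normalization).

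Among the accessory subunits of the peripheral arm, 4 of 9 were called higher and 0 lower, against 28.0% and 17.5% of all features. Their median difference was 0.21 (-0.35 on the spike-in scale). Ndufa5, a subunit of the ubiquinone-binding part of the arm, was at 6.24, 6.11, 6.06 and 6.08 in CCl4 and at 6.49 to 7.0 (median 6.86) in metformin. Its difference of 0.68 ± 0.11 (1.61-fold, adjusted p = 6.15e-04; 0.13 on the spike-in scale) was the largest of any member, and a second probe gave 0.95 (0.40 on the spike-in scale). Ndufa6, a LYR-motif subunit that docks the acyl carrier protein on the peripheral arm, was at 6.06, 6.02, 6.02 and 6.06 in CCl4 and at 6.45 to 6.71 (median 6.58) in metformin, a difference of 0.54 ± 0.078 (adjusted p = 3.98e-04; -0.02 on the spike-in scale). The 4 CCl4 arrays of Ndufa6 lay closer together than its metformin arrays, and no value of one group reached the other.

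Ndufs6, a zinc-binding subunit of the peripheral arm, was at 7.61, 7.64, 7.62 and 7.58 in CCl4 and at 7.65 to 7.96 (median 7.85) in metformin. Its groups did not overlap, yet the difference of 0.21 ± 0.088 was not called (adjusted p = 0.0799; -0.35 on the spike-in scale). It was called higher with normexp background correction (0.31, adjusted p = 0.00400) and without metformin mouse 1 (0.24, adjusted p = 0.0495). Ndufv3, a small subunit beside the flavin subunit, had 2 probes that disagreed: the brighter was at 7.17, 7.18, 7.16 and 7.10 in CCl4 and at 7.11 to 7.53 (median 7.30) in metformin, a difference of 0.16 ± 0.090 that was not called (adjusted p = 0.183; -0.40 on the spike-in scale). The dimmer Ndufv3 probe was at 1.62, 1.64, 1.51 and 1.52 in CCl4 and at 0.87 to 1.32 in metformin. There the groups did not overlap, and the difference was -0.51 (adjusted p = 0.00302 with every kept probe tested on its own; -1.07 on the spike-in scale). With probes tested singly, 26.6% of all kept probes were called higher and 18.6% lower, and which transcripts the Ndufv3 probes read was not tested.

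The other 16 subunits are given by range. Ndufa2, Ndufa11, Ndufa12, Ndufb3, Ndufb6, Ndufb11, Ndufc2 and Ndufs5 were called higher, by 0.25 to 0.48. Ndufa3, Ndufa7, Ndufa9, Ndufa10, Ndufab1, Ndufb7, Ndufb8 and Ndufs4 were not called and lay between -0.24 and 0.21. The lowest of these, Ndufa10, a kinase-like subunit of the membrane arm, was at 4.58, 4.54, 4.43 and 4.57 in CCl4 and at 4.08 to 4.64 in metformin, with metformin mouse 2 alone above the CCl4 arrays. The difference was -0.24 ± 0.11 (adjusted p = 0.114; -0.79 on the spike-in scale). Without mouse 2 it was -0.31 and was called lower (adjusted p = 0.0239), the only subunit call in that direction when 1 mouse was left out. Ndufab1, the mitochondrial acyl carrier protein, is found in both arms and differed by 0.21 ± 0.090 (adjusted p = 0.0840; -0.35 on the spike-in scale).

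Ndufa4 carries a complex I name but is now placed in complex IV (cytochrome c oxidase). It was at 6.47, 6.59, 6.75 and 6.64 in CCl4 and at 6.71 to 6.93 (median 6.81) in metformin, a difference of 0.20 ± 0.084 that was not called (adjusted p = 0.0740; -0.35 on the spike-in scale) but was with normexp background correction (0.31, adjusted p = 0.0146). Its relative Ndufa4l2, known as a hypoxia-responsive gene, had one of the 3 dimmest probes. It was at -0.93, -1.21, -1.65 and -0.89 in CCl4 and at -1.56 to -0.68 (median -1.30) in metformin. The groups overlapped almost fully, and the difference of -0.05 ± 0.20 (adjusted p = 0.872; -0.60 on the spike-in scale) had an interval from -0.50 to 0.41.

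**Figure D2:**
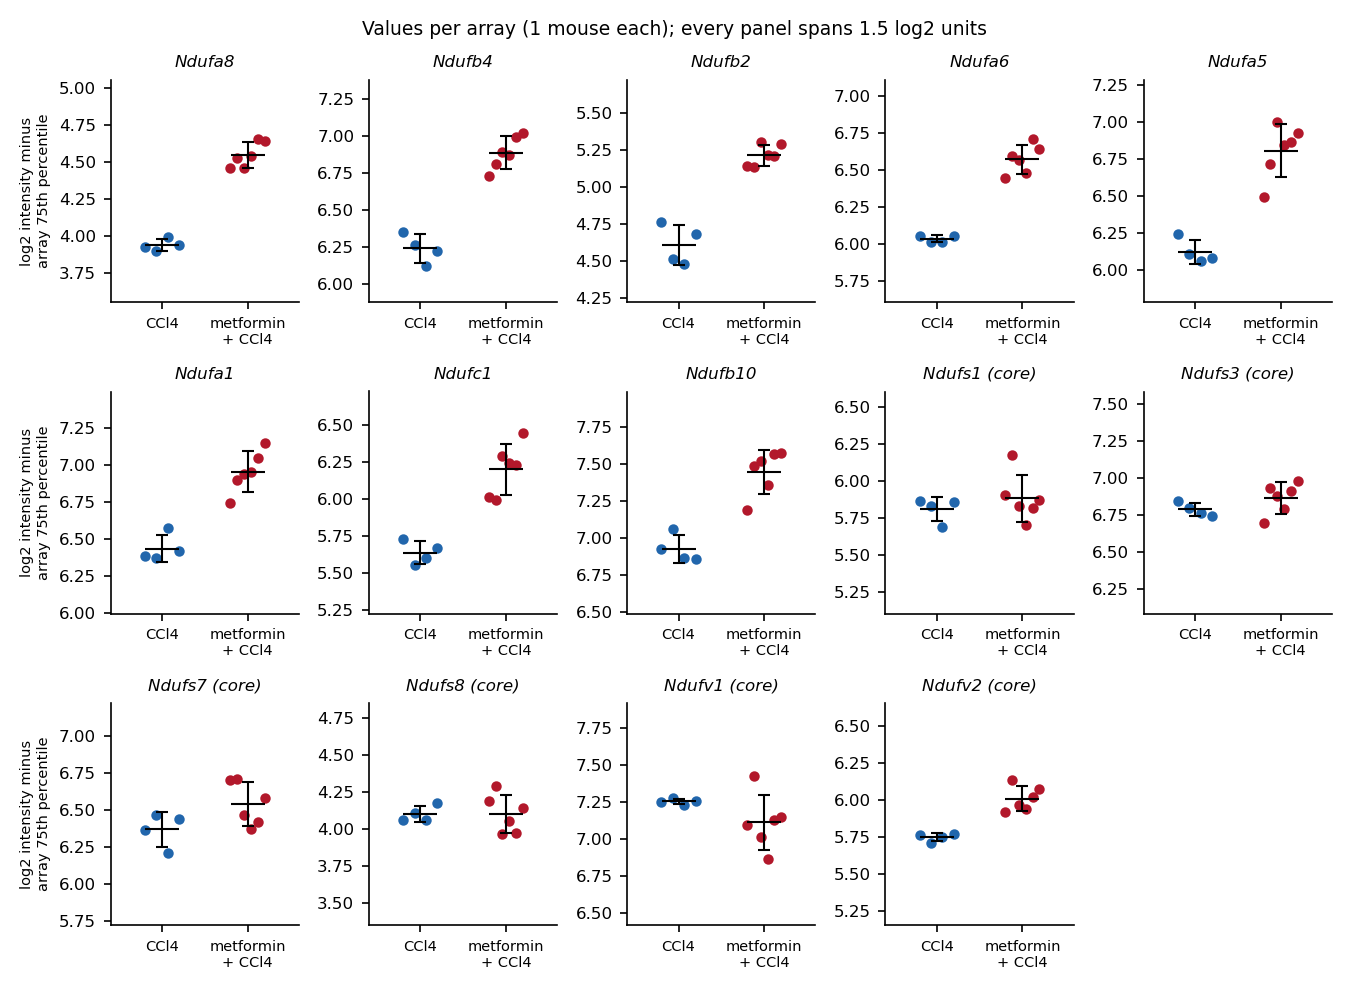
Values per array (y axis, log2 intensity minus the 75th percentile of the array; 1 point per mouse, CCl4 blue, metformin plus CCl4 red; black bars are the mean and SD) for the 8 subunits with the smallest adjusted p and the 6 core subunits. The first 8 panels were picked by adjusted p from these same values, and in them the groups do not overlap. The core panels were picked by role, and there the groups are apart for Ndufv2 alone. Because of how they were picked, the 8 and the 6 panels cannot be compared on overlap. On the spike-in scale the differences in these 14 panels run from -0.70 to 0.13.

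Of the 8 Ndufaf assembly factors, 4 were called higher and 0 lower (0 lower at an unadjusted p), with a median difference of 0.29. Over all features 28.0% were called higher and 17.5% lower. On the spike-in scale the median was -0.26. There 0 factors were called higher (also 0 at an unadjusted p) and 1, Ndufaf7, lower, against 4.17% and 43.8% of all features. Ndufaf2, which assists a late step in the peripheral arm and is a paralogue of Ndufa12, was at 2.17, 2.29, 2.27 and 2.34 in CCl4 and at 2.64 to 2.85 (median 2.81) in metformin, a difference of 0.51 ± 0.076 (adjusted p = 4.51e-04; -0.04 on the spike-in scale). Ndufaf8, a partner of Ndufaf5, had one of the 3 dimmest probes and was at 0.20, -0.03, -0.13 and -0.16 in CCl4 and at 0.47 to 0.74 (median 0.61) in metformin, a difference of 0.62 ± 0.096 (adjusted p = 5.72e-04; 0.07 on the spike-in scale). In neither gene did the groups overlap.

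Ndufaf1, part of the membrane arm assembly complex (MCIA), was at 3.34, 3.39, 3.41 and 3.47 in CCl4 and at 3.57 to 3.91 (median 3.68) in metformin (difference 0.30 ± 0.084, adjusted p = 0.0143; -0.25 on the spike-in scale). Ndufaf6 was at 2.32, 2.37, 2.20 and 2.32 and at 2.39 to 2.73 (median 2.60), a difference of 0.28 ± 0.091 (adjusted p = 0.0296; -0.28 on the spike-in scale). The groups were apart in both, with the lowest metformin array of Ndufaf6 only just above the highest CCl4 array; its call was lost when any of 6 single mice was left out.

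Ndufaf4, which works with Ndufaf3, was at 3.52, 3.13, 3.15 and 2.85 in CCl4 and at 3.15 to 3.98 (median 3.59) in metformin, and its difference of 0.39 ± 0.17 was not called (adjusted p = 0.0941; -0.17 on the spike-in scale). It was called higher at 0.66 once slide row entered the model (adjusted p = 0.0341), at 0.47 when metformin mouse 4 was dropped (adjusted p = 0.0449) and at 0.50 when CCl4 mouse 1 was (adjusted p = 0.0457). A second Ndufaf4 probe had tighter CCl4 values (2.87 to 3.03) and was called higher at 0.36 (adjusted p = 0.0494). Ndufaf3 was at 1.59, 1.81, 1.43 and 1.75 in CCl4 and at 1.67 to 2.02 (median 1.78) in metformin, a difference of 0.17 ± 0.10 (adjusted p = 0.194; -0.38 on the spike-in scale).

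Ndufaf5, a methyltransferase-like protein that modifies Ndufs7, was at -1.37, -1.41, -1.28 and -1.44 in CCl4 and at -1.44 to -0.80 (median -0.99) in metformin. Metformin mice 1 and 2 lay with the CCl4 mice and mice 3 to 6 above them, which is also the split by slide row; the difference was 0.28 ± 0.14 (adjusted p = 0.128; -0.27 on the spike-in scale) and -0.06 in slide row 1 alone. Ndufaf7, a methyltransferase needed for assembly, was at 2.87, 2.88, 2.66 and 2.88 in CCl4 and at 2.48 to 2.99 (median 2.89) in metformin, a difference of -0.02 ± 0.11 (adjusted p = 0.910; -0.57 on the spike-in scale) with an interval from -0.27 to 0.24.

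The contrast between accessory and core subunits can be read within each array, where the scale cancels. It does not set the arms against each other. The mean of the 19 membrane arm accessory subunits minus the mean of the 6 core subunits was -0.07, -0.09, -0.05 and -0.12 in CCl4 mice 1 to 4, and ran from -0.03 to 0.28 (median 0.27) in metformin. Every metformin array lay above the CCl4 arrays, and the change was 0.27. The metformin values fell apart by slide row: mice 1 and 2 were at -0.03 to 0.04 and mice 3 to 6 at 0.27 to 0.28, so with row 1 alone the change was 0.09. The same contrast for peripheral arm accessory subunits minus core subunits was higher by 0.22 over all arrays and by 0.01 with row 1 alone, and the ranges of the groups overlapped in both. A contrast within an array shows unequal change and leaves the level of either set unsettled.

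**Figure D3:**
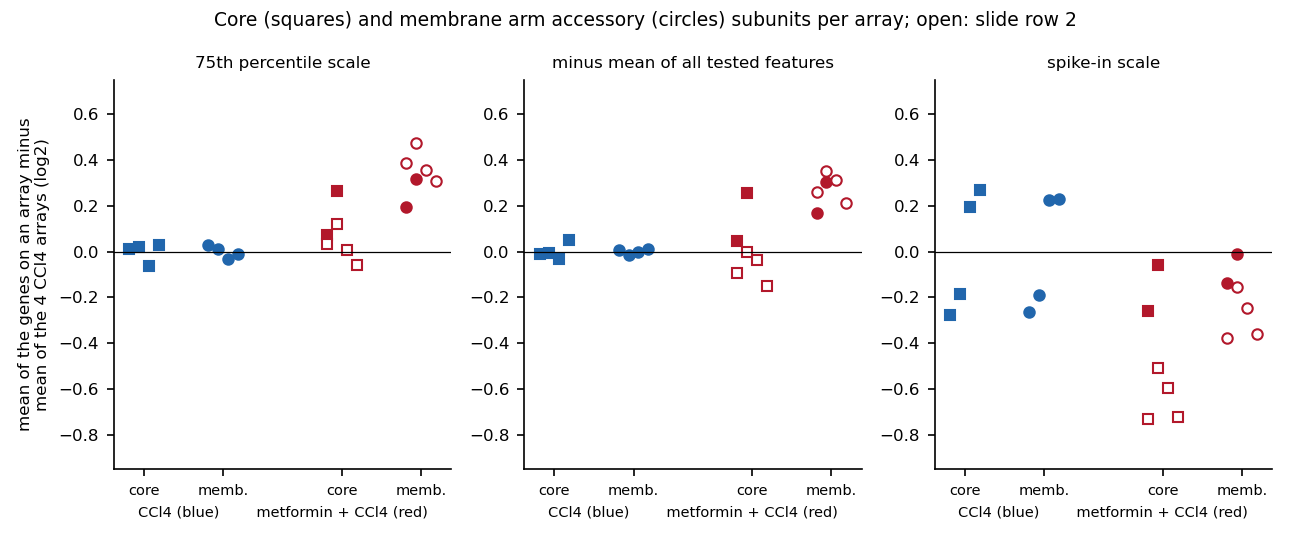
Mean of the 6 core (squares) and 19 membrane arm accessory (circles) subunits on each array minus the mean of the 4 CCl4 arrays (y axis, log2), on the 75th percentile scale, relative to the mean of all tested features, and on the spike-in scale; blue is CCl4, red metformin plus CCl4, open symbols slide row 2. Membrane arm means lie above the CCl4 arrays in the first 2 panels, and on the spike-in scale the metformin arrays lie below the CCl4 mean in both sets.

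A fit on slide row 1 alone compares metformin mice 1 and 2 with the 4 CCl4 mice, so it changes the row and the number of arrays together. In it 5 of 37 subunits were called higher, Ndufa8, Ndufb4, Ndufb2, Ndufa6 and Ndufa5, against 15.7% of all features (28.0% with all arrays), and the subunits' median difference was 0.23. Ndufaf2, Ndufaf8 and Ndufaf6 kept their calls there. The 8 subunits with the smallest adjusted p had differences from 0.36 to 0.55 in this subset. Core subunit differences there ran from 0.01 to 0.34, with Ndufs7 the highest.

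The members also varied more among metformin mice. The median SD of a subunit was 0.126 over the 6 metformin arrays and 0.0705 over the 4 CCl4 arrays, and it was larger in metformin for 30 of 37 subunits, among them all 6 core subunits, and for 12240 of 22184 features. Over all features the median SDs were 0.229 and 0.215. The metformin arrays came from both slide rows and the CCl4 arrays from row 1 alone, and the mean of the core subunits ran from 6.08 to 6.28 in the metformin mice of row 1 and from 5.95 to 6.13 in those of row 2; the part of slide row in the spread was not tested. The mean over the 37 subunits ran from 5.89 to 6.13 in metformin and from 5.72 to 5.76 in CCl4; on the spike-in scale the CCl4 arrays were the more spread, from 1.97 to 2.49, and the metformin arrays ran from 1.79 to 2.19.

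Of the assembly factors without an Ndufaf name, 7 of 12 tested were called higher and 0 lower, against 28.0% and 17.5% of all features. On the spike-in scale 0 were called higher and 3 lower, against 4.17% and 43.8% of all features. Their median difference was 0.31 (-0.24 on the spike-in scale). Tmem186 (1.02 ± 0.12, adjusted p = 1.23e-04) and Tmem126b (0.53 ± 0.097, adjusted p = 0.00148) belong to the MCIA complex with Ndufaf1 and had spike-in values of 0.47 and -0.02. Lyrm2, a LYR-motif protein, was higher by 1.08 ± 0.17 (adjusted p = 6.79e-04; 0.53 on the spike-in scale), and Aifm1, which supports import of respiratory chain proteins, by 0.60 ± 0.085 (adjusted p = 3.69e-04; 0.04). Timmdc1, Dmac1 and Tmem70 went the other way without a call, at -0.20, -0.13 and -0.03 (adjusted p = 0.404, 0.519 and 0.807). Tmem186, Lyrm2 and Aifm1 had larger differences than most Ndufaf genes, which was not tested.

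The genes that build iron-sulphur clusters, which several core subunits need, were called at about the rate of all features (28.0% higher and 17.5% lower). Of 14 genes, 4 were higher and 2 lower, with a median of 0.11 (-0.44 on the spike-in scale). On the spike-in scale 1 was higher and 6 lower, against 4.17% and 43.8% of all features. Hscb, a co-chaperone of cluster transfer, was higher by 1.11 ± 0.086 (adjusted p = 2.21e-05; 0.56 on the spike-in scale), and Iba57 by 0.56 ± 0.099 (adjusted p = 0.00125; 0.01). Isca1, a late-acting scaffold, was lower by -0.61 ± 0.11 (adjusted p = 0.00172) and the chaperone Hspa9 by -0.23 ± 0.084 (adjusted p = 0.0475), and both were lower on the spike-in scale too.

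Of 15 regulators of mitochondrial transcription and biogenesis, 6 were higher and 2 lower, against 28.0% and 17.5% of all features. Their median was 0.01 (-0.54 on the spike-in scale). On that scale 1 was higher and 8 lower, against 4.17% and 43.8% of all features. Esrra (ERR alpha, a nuclear receptor that drives respiratory genes) was higher by 1.04 ± 0.15 (adjusted p = 3.42e-04; 0.49 on the spike-in scale), Polg2, a subunit of the mitochondrial DNA polymerase, by 1.15 ± 0.12 (adjusted p = 7.23e-05; 0.59) and the transcription factor Tfb2m by 0.52 ± 0.087 (adjusted p = 9.64e-04; -0.04). Gabpb1, the beta subunit of GABP, was lower by -1.37 ± 0.12 (adjusted p = 4.28e-05), and Nrf1, whose letters were searched in the promoters, by -0.47 ± 0.15 (adjusted p = 0.0266); on the spike-in scale they were at -1.93 and -1.03. Gabpa and Yy1 were named after their values were seen, for their motifs: they were higher by 0.49 and 0.55 (adjusted p = 0.00457 and 0.00105), and at -0.06 and -0.01 on the spike-in scale.

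Complexes II to V had 16 of 37 tested genes higher and 2 lower, against 28.0% and 17.5% of all features. Their median difference was 0.23 (-0.33 on the spike-in scale), beside 0.25 for the complex I subunits. After spike-in scaling 0 were called higher and 10 lower, against 4.17% and 43.8% of all features. The 2 lower genes were Uqcrc1 of complex III (-0.48 ± 0.089) and Atp5d of the ATP synthase (-0.24 ± 0.080; adjusted p = 0.00164 and 0.0323). Sdhd of complex II was higher by 0.41 ± 0.073 (adjusted p = 0.00136; -0.14 on the spike-in scale). The share called higher was 51.4% of complex I subunits and 43.2% of these genes, and the difference between the shares was not tested.

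**Figure D4:**
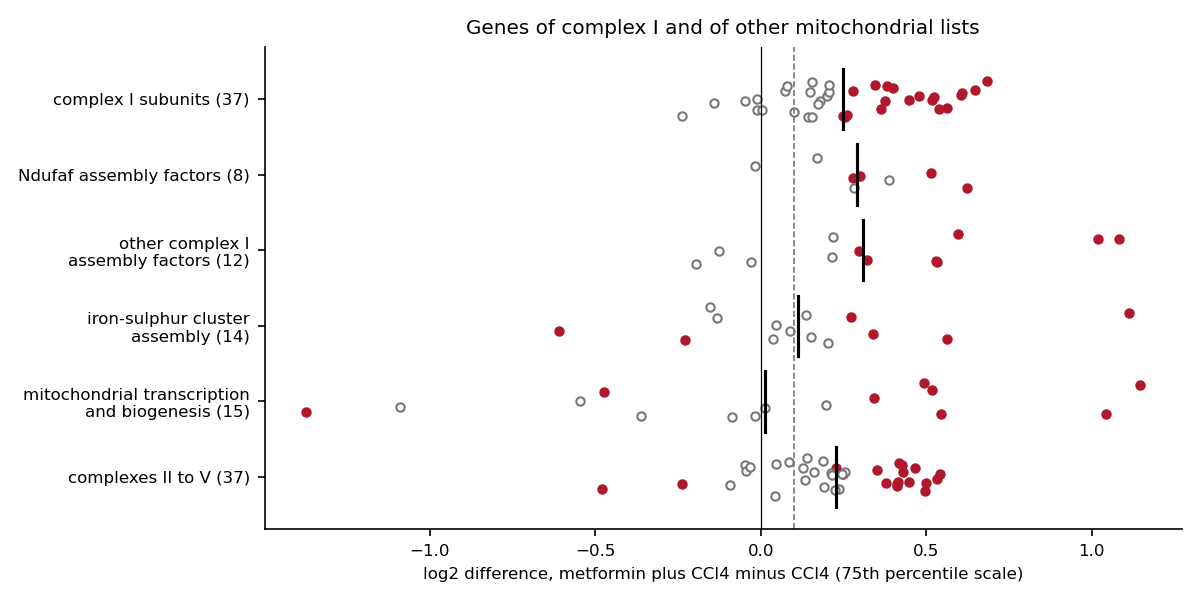
Log2 difference on the 75th percentile scale (x axis, metformin plus CCl4 minus CCl4) of every tested gene in 6 lists, with the number tested in brackets; red points passed adjusted p below 0.05, black bars are list medians and the dashed line is the median of all features (0.10). The medians of the first 3 lists and of complexes II to V lie right of the dashed line, at 0.23 to 0.31, that of iron-sulphur assembly is close to it at 0.11 and that of biogenesis lies left of it at 0.01; on the spike-in scale all 6 medians are below 0.

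In the authors' deposited table of 4595 probes with differences of at least 0.585 on the log2 scale, 2 probes of members were listed. They were a second Ndufa5 probe, at 0.85, and the Ndufaf8 probe, at 0.59.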

How the data were processed

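Liver RNA (100 ng, integrity number above 8) was labelled with Cy3 and hybridised to Agilent 1-colour mouse arrays, 1 per mouse, as the labels' protocols state. Scanner files deposited by the authors hold intensities on a linear scale from Feature Extraction 10.7.3.1, background-subtracted and detrended but not normalized between arrays, per the file headers. A second file deposited by the authors gives log2 values for 4595 probes, limited to larger differences; its log2 differences of group means were used only to describe 2 probes, and the test behind its filter is not given in the sources used here.

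The log2 intensity minus the array's 75th percentile was taken. Irregular spots (135 to 179 of 59305 per array) were left out, and the spots of each probe averaged. A probe was kept (29576 were) if well above background on 75% or more of one group's arrays. Accessions were matched to RefSeq (GRCm38.p6, names only, since the array design used mm9), naming 28664 probes. A gene was represented by its brightest kept probe over all 10 arrays, giving 22184 features. Groups were compared with limma 3.58.1 in R 4.3.3 (lmFit, eBayes, two-sided, Benjamini-Hochberg over all features, threshold 0.05), with SE and 95% intervals from limma; the script was tested on simulated data. Precision is limited by the 6 and 4 arrays. Figures were drawn with matplotlib.

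Members with values of their own were the core subunits, the 8 subunits with the smallest adjusted p, all Ndufaf genes, any member called lower, Ndufa4, Ndufa4l2, the 3 brightest and 3 dimmest, and members whose probes disagreed in call; of other lists up to 4 genes with the smallest adjusted p and those moving against the rest. Of the genes these rules take in, 1 member and 2 genes of other lists were fitted with the whole table but are not reported here. Members and lists were chosen with earlier results of these data known. Alternatives were normexp on median intensities (no mean column was used), quantile, median and spike-in scaling, other filters, the mean of a gene's probes, each probe alone, array weights, slide row as a covariate or row 1 alone, a replicate block, and leaving out each mouse.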

Additional observations from a re-analysis of the deposited data

Results flagged for a closer look

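In 4 of 100 groups of arrays checked, 1 array stood apart from the rest of its group; chance gives this in about 1 of 20 groups. Metformin mouse 1 was the lowest for Ndufa12, at 5.725 against 5.954 for the next, and metformin mouse 4 the lowest for Ndufa7, at 6.5 against 6.672. CCl4 mouse 2 was the highest for Ndufa3, at 7.043 against 6.878. CCl4 mouse 3 was the lowest for Ndufaf7, at 2.661 against 2.874. No cause was tested for any of these.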

How the results depend on the processing

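Subunits called higher (19) fell to 0 after spike-in scaling, 12 with slide row as a covariate and 5 with slide row 1 alone. They stayed at 13 to 21 in the other alternatives on all mice and 17 to 20 with single mice left out. With slide row as a covariate Ndufs7 gained a call, and Ndufa2, Ndufa11, Ndufa12, Ndufb3, Ndufb6, Ndufb9, Ndufb11 and Ndufv2 lost theirs. Subunits called lower (0) became 9 after spike-in scaling, 2 after quantile normalization, 1 with each probe as a feature and 0 to 1 with single mice left out. Assembly factors called higher (4) became 0 after spike-in scaling (1 lower) and 2 after quantile normalization or median scaling. Beside the main fit, shares of all features are given above for spike-in scaling, quantile normalization, row 1 alone and each probe as a feature. The other counts here have no such share beside them.

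Mice share numbers 1 to 4 between groups, but same-numbered mice did not vary together (r = -0.143, -0.124, 0.0854 and -0.00343), so no pairing was assumed. A replicate block, which leaves out metformin mice 5 and 6, gave 9 subunits and 2 assembly factors higher; the same 8 mice with no replicate block, a fit added after seeing the data, gave 15 and 3. The share of all features called in these fits is not given, so whether the fall is particular to complex I was not tested. Ndufaf7 was at 0.016 in both.

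Spike-in scaling turned 20 named differences negative: Ndufa1 -0.035, Ndufa13 -0.41, Ndufa4 -0.35, Ndufa6 -0.016, Ndufaf1 -0.25, Ndufaf2 -0.041, Ndufaf3 -0.38, Ndufaf4 -0.17, Ndufaf5 -0.27, Ndufaf6 -0.28, Ndufb10 -0.030, Ndufb5 -0.19, Ndufb9 -0.30, Ndufs1 -0.48, Ndufs3 -0.48, Ndufs6 -0.35, Ndufs7 -0.38, Ndufs8 -0.55, Ndufv2 -0.29 and Ndufv3 -0.40. Quantile normalization turned Ndufa13 (-0.018), Ndufs1 (-0.068), Ndufs3 (-0.071), Ndufs8 (-0.11) and Ndufv3 (-6.5e-04). Slide row as a covariate and row 1 alone, which use 1 pair of metformin arrays for the contrast, turned Ndufaf5 (-0.060), Ndufaf7 (0.10) and Ndufv1 (0.0068). Ndufs8 was at -0.061 after median scaling and -0.0044 with array weights, Ndufaf7 at 0.043 with normexp, and Ndufv3 at -0.18 as the mean of its probes. With single mice left out, Ndufs8 ran from -0.034 to 0.031, Ndufaf7 from -0.073 to 0.046 and Ndufa4l2 from -0.21 to 0.048. The cause of these changes was not tested, apart from the constant shift that spike-in scaling makes and the fewer arrays of the row and block fits. Of the probes used here the authors' table holds that of Ndufaf8 alone, so it gave no other value.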
